A study of Mus musculus with 12 samples.

Results

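The genes described here are 44 genes of autophagy, the lysosome and the lysosomal anchoring of mTOR. They were chosen by symbol as pathway members, with earlier results of these data known. They were rows of a count table of 25189 genes. The list holds 2 transcription factors, 9 genes of initiation and membrane supply, 6 of the conjugation machinery, 6 for ATG8 proteins and a cargo receptor, 4 for lysosomal membrane proteins, 6 cathepsins, 5 other luminal proteins and 6 genes of mTOR anchoring. Of these, 43 passed the filter on low counts and 1, Wipi1, did not. No tested member was under 5.90 CPM (counts scaled to a common library size) in any library.

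The RNA came from splenic regulatory T (Treg) cells, CD4 cells that hold other immune cells in check, of 4-week-old female mice, in 12 libraries, 4 for each of 3 genotypes. Cells were sorted as CD4+RFP+ or CD4+YFP+ from Foxp3∆EGFPiCre/RFPR26YFP mice and from Foxp3∆EGFPiCre/+Rictor∆/∆R26YFP mice. WT cells had a working Foxp3 gene, the lineage regulator of Treg cells. Foxp3-deficient cells carried the ∆EGFPiCre allele, and double-deficient cells carried it and had also lost Rictor, which defines mTOR complex 2. Cre was made from the Foxp3 locus itself, so the deficient cells are those that switched that locus on. Both kinds of mice were heterozygous females, and they still held cells with a working Foxp3 allele. The partner allele was RFP in the first kind of mice and + in the second. As read from the allele names, reporter and genotype went together, so reporter and loss of Foxp3 cannot be told apart. The labels leave out the mouse behind each library and whether WT and Foxp3-deficient libraries came from the same mice, so p-values measure only the spread between these samples, which may be technical.

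Autophagy wraps portions of the cytoplasm in a double membrane and delivers them to the lysosome, where acid hydrolases such as cathepsins break them down. A kinase complex around Ulk1 starts the process, a lipid kinase complex around Becn1 marks the membrane, and 2 conjugation steps attach ATG8 proteins to it. The lysosome surface also carries the Ragulator and Rag proteins on which mTOR complex 1 is switched on when amino acids are plentiful, and the transcription factors TFEB and TFE3 drive lysosomal and autophagy genes when it is off. In T cells autophagy is known for its part in survival and metabolic balance, also in Treg cells. The comparisons ask how mRNA of these genes differed with loss of Foxp3 and with the further loss of Rictor.

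Each library held 15769737 to 26114044 reads in genes. Gene positions are those of GENCODE M21 on GRCm38. Values in every library are given in the order of the labels' replicate numbers, 1, 3, 4 and 5 for WT and for Foxp3-deficient and 2, 3, 4 and 5 for double-deficient. Foxp3 read 633 ± 75.8 CPM in WT cells, 118 ± 22.8 in Foxp3-deficient cells and 102 ± 13.7 in double-deficient cells (n = 4, mean ± SD). Rictor read 148 ± 14.4, 189 ± 31.2 and 141 ± 12.6 CPM, a count over the whole gene that does not check a deletion of part of it. The 6 T cell markers summed to 4027 to 5028 CPM over all 12 libraries. Foxp3-deficient 1 and Foxp3-deficient 3 lay apart from the other libraries of their group on principal components, at −59.4 on the second and 55.2 on the third. In double-deficient libraries 5.0% ± 0.366 of reads lay outside genes, against 7.83% ± 1.51 in Foxp3-deficient and 8.18% ± 0.507 in WT. Reads without a unique alignment made up 32.1% ± 0.854 there, against 26.9% ± 2.80 and 27.0% ± 1.26. By exact permutation, two-sided, p was 0.0286 for each of these 4 differences and 0.0571 after adjustment over 12 tests. That 0.0286 is the smallest that 4 against 4 can give. The share of reads in genes had the same p in double-deficient (60.5% ± 0.738) against Foxp3-deficient libraries (62.8% ± 1.89). So had the slope of log2 CPM (less each gene's mean) on log2 exonic length in double-deficient (−0.0707 ± 0.0284) against WT libraries (0.0220 ± 0.0115). For reads in genes against WT and the slope against Foxp3-deficient libraries p was 0.0571 by this test, 0.0857 adjusted. Between Foxp3-deficient and WT libraries p was 0.629 or more.

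Members moved in both directions in every comparison. In Foxp3-deficient against WT cells 6 of 43 members (14.0%) passed edgeR's quasi-likelihood test at an adjusted p under 0.05, against 13.7% of all 13196 genes tested. The 1 higher member was Map1lc3a (6.99% of all genes were higher), and the 5 lower ones were Gabarapl1, Lamp1, Ctss, Ctsz and Lamtor4 (6.74% were lower). In double-deficient against Foxp3-deficient cells 15 of 43 (34.9%) passed, against 27.2% of all genes. Of these, 10 rose (Atg3, Atg5, Gabarap, Gabarapl1, Lamp2, Ctsl, Ctss, Lamtor2, Lamtor4 and Lamtor5) and 5 fell (Atg9a, Atg2a, Atg16l1, Mcoln1 and Psap), where 13.9% of all genes rose and 13.3% fell. In double-deficient against WT cells 13 of 43 (30.2%) passed, against 32.6% of all genes. Here 6 were higher (Atg3, Atg5, Map1lc3a, Sqstm1, Ctsd and Npc2) and 7 lower (Wipi2, Atg16l1, Lamp1, Mcoln1, Ctsz, Grn and Flcn), where 15.8% of all genes were higher and 16.8% lower. The median log2 fold change of the members was 0.00, −0.06 and −0.06 in the 3 comparisons, and that of all genes was 0.00, −0.02 and −0.03. The members' shares were near those of all genes in both comparisons with WT, and the 34.9% against 27.2% between the deficient groups was not tested as a difference. All genes tested include ones of low level, such as Cd8a at 0.192 CPM in WT cells. No tested member was under 5.90 CPM in any library, so the shares are not matched for level. The comparisons share libraries, so their counts are not independent. In bulk RNA, a lower share of cells with a transcript and less of it per cell cannot be told apart.

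The counts moved with the fit. DESeq2 called 10 members in Foxp3-deficient against WT cells, 5 higher and 5 lower, where edgeR called 6. A fit of only the groups compared called 7 in double-deficient against Foxp3-deficient cells and 21 in double-deficient against WT cells. Leaving out 1 library gave 6 to 20 members in double-deficient against Foxp3-deficient cells, with 9 without Foxp3-deficient 4, 7 without double-deficient 4 and 6 without double-deficient 5. In double-deficient against WT cells 20 were called without Foxp3-deficient 1 and 22 without Foxp3-deficient 1 and 3 together. Of the 34 calls in the 3 comparisons, 19 were kept without any single library and 15 were not; those are given with their members below.

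**Figure D1:**
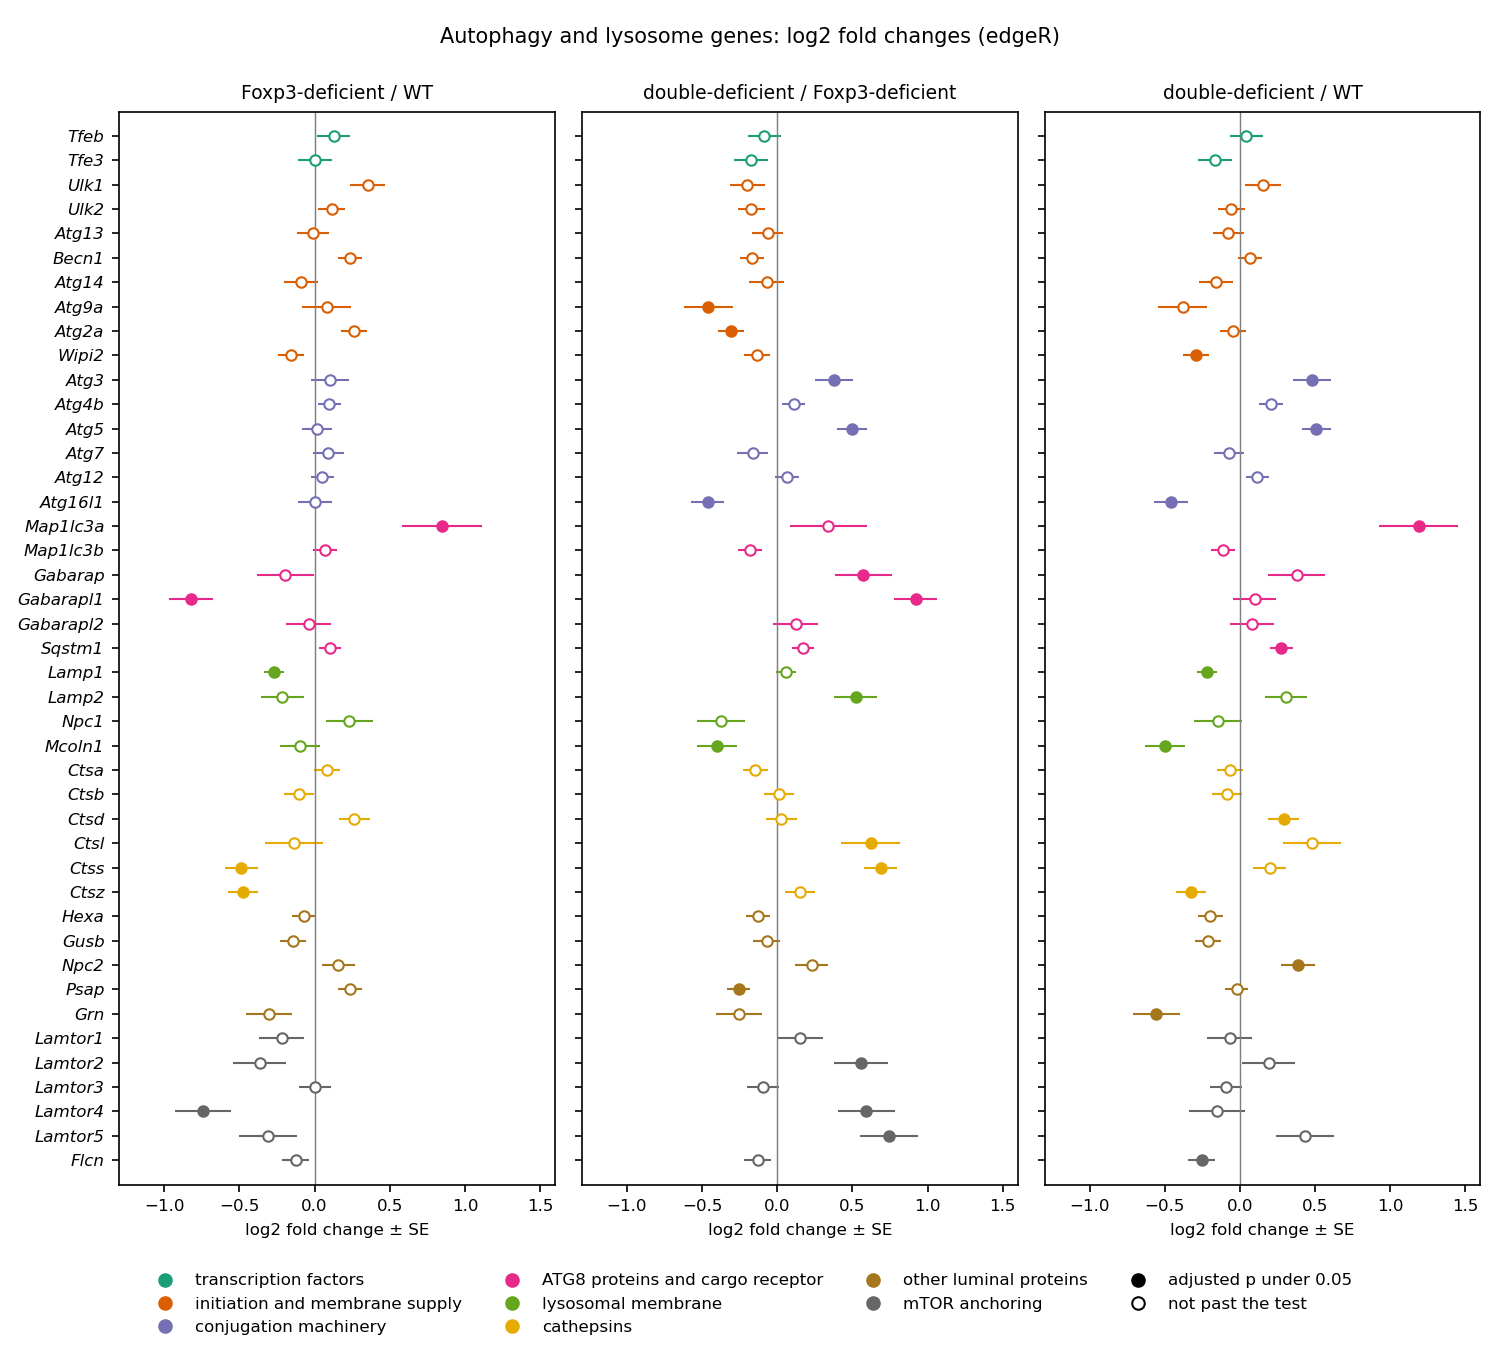
Log2 fold change with its standard error (horizontal axis) of the 43 tested members (rows, coloured by role) in the 3 comparisons (panels). Filled points passed edgeR at an adjusted p under 0.05: 6 in the first panel, 15 in the second and 13 in the third, on both sides of 0.

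Neither transcription factor passed the test in any comparison by edgeR, DESeq2 or limma-voom, and neither had an unadjusted edgeR p under 0.05. Without Foxp3-deficient 3, Tfe3 was called lower in double-deficient cells than in Foxp3-deficient ones. Tfeb, which binds lysosomal promoters and is held in the cytoplasm by mTOR complex 1, read 54.8 ± 5.73 CPM in WT cells, 59.8 ± 7.56 in Foxp3-deficient cells and 56.4 ± 5.30 in double-deficient cells (n = 4, mean ± SD). Tfe3, its relative with the same kind of binding site, read 70.9 ± 2.01, 71.1 ± 13.0 and 63.1 ± 3.01 CPM. Their log2 fold changes lay between −0.17 and 0.13 over the 3 comparisons, with edgeR adjusted p of 0.263 or more. Both proteins are regulated mainly by phosphorylation and location, which mRNA counts do not show. Of their relatives, Mitf was tested and not called, at 1.58 ± 0.293, 2.02 ± 1.03 and 0.911 ± 0.450 CPM, and Tfec had too few reads to test.

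TFEB and TFE3 bind an E-box, so the promoters of the members were searched for it. RefSeq promoters on GRCm38.p6, from 250 bases before to 50 bases after each gene's start, were matched for 37 members (42 promoters). The letters CACGTG stood in 11 of the 42 (26.2%), against 7.15% of all 32851 promoters and 9.92% of the 11885 promoters of genes tested. With 1 base added, TCACGTG on either strand stood in 9 (21.4%), against 3.77% and 5.94%, and every such match contains the shorter letters. The members with CACGTG were Ctsa, Lamtor4, Atg7, Lamtor1, Ctsd, Mcoln1, Lamp1, Atg5, Ctsl, Atg14 and Atg3. They lie in the conjugation machinery (3 of 4 promoters), lysosomal membrane (2 of 3), cathepsins (3 of 6), mTOR anchoring (2 of 5) and initiation (1 of 8), with none of 5 promoters of ATG8 proteins and the cargo receptor. The 11 members with the letters moved both ways: 0 rose and 2 fell in Foxp3-deficient against WT cells, 4 rose and 1 fell in double-deficient against Foxp3-deficient cells, and 3 rose and 2 fell in double-deficient against WT cells. These stand beside 6.99% and 6.74% of all genes in the first comparison, 13.9% and 13.3% in the second and 15.8% and 16.8% in the last. Of 25 tested members with a promoter but without the letters, 0 rose and 3 fell, 6 rose and 3 fell, and 2 rose and 4 fell. A match is a run of letters and not a shown binding site.

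The windows of the 7 called members with a match are shown because they set the same letters beside genes that moved in different directions. They run 5′ to 3′ on the gene's strand, with the matches in capitals. Lamp1 (chr8:13159084-13159160), Mcoln1 (chr8:3500432-3500495), Lamtor4 (chr5:138255347-138255398), Atg3 (chr16:45158719-45158779) and Atg5 (chr10:44268310-44268338) are on the plus strand, and Ctsd (chr7:142387904-142387941) and Ctsl (chr13:64370736-64370770) on the minus strand. Lamp1 and Mcoln1 were lower in double-deficient than in WT cells, Atg3, Atg5 and Ctsd were higher, and Lamtor4 and Ctsl were higher in double-deficient cells than in Foxp3-deficient ones. The Lamp1 window holds 4 matches, and those of Mcoln1, Lamtor4 and Atg3 hold 2 each.
Lamp1: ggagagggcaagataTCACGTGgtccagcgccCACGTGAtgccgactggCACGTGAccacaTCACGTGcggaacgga
Mcoln1: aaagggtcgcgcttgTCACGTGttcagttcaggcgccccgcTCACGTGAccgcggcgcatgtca
Lamtor4: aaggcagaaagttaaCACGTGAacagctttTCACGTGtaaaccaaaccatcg
Atg3: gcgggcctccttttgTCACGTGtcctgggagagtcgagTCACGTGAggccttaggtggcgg
Atg5: gggcggagcgcttgcCACGTGgtcttggt
Ctsd: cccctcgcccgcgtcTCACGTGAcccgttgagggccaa
Ctsl: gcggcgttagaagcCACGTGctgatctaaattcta

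**Figure D2:**
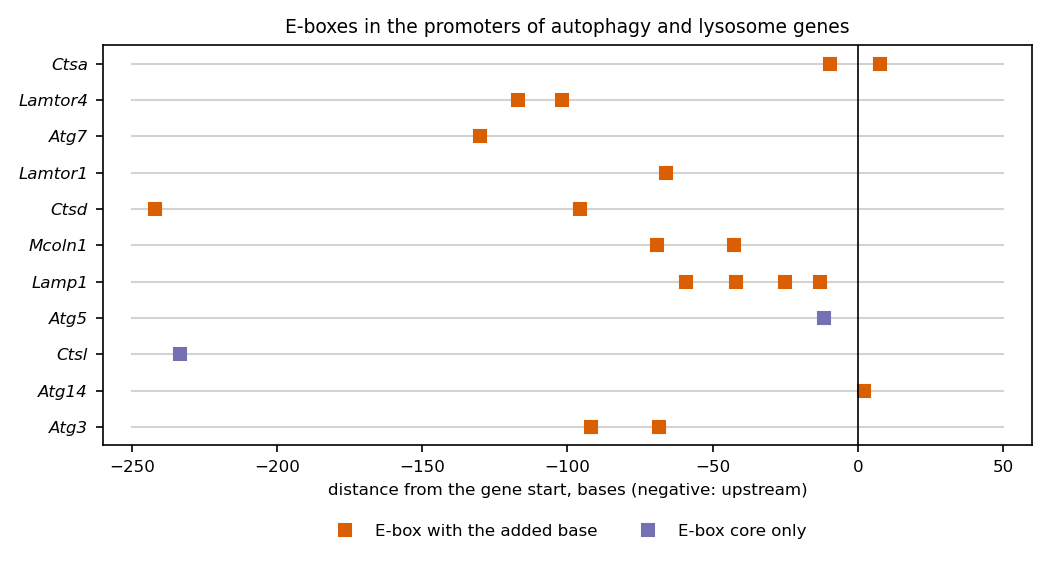
Position of each E-box match in bases from the gene's start (horizontal axis, start at 0) in the promoters of the 11 members that hold one (rows). Most matches carry the added base, and those of Atg5 and Ctsl hold the shorter letters alone; the matches of Lamp1 lie between −62 and −10.

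Among the genes of initiation and membrane supply, none passed edgeR's test in Foxp3-deficient against WT cells, where 13.7% of all genes passed. Of them, 3 had an unadjusted edgeR p under 0.05 there, DESeq2 called 3 and limma-voom 0. In double-deficient against Foxp3-deficient cells 2 fell, where 13.3% of all genes fell. Against WT cells 1 was lower in double-deficient cells, where 16.8% of all genes were lower. All 8 tested members had a negative log2 fold change in double-deficient against Foxp3-deficient cells, from −0.46 to −0.06. Of all 13196 genes, 6889 were negative there. With each library's trend in transcript length and GC content removed, the median of the 8 members was 0.00 and none passed. Atg2a (chr19:6241668-6262335), which moves lipid into the growing membrane, read 134, 147, 127 and 142 CPM in the WT, 189, 165, 152 and 150.4 in the Foxp3-deficient and 138, 138, 133 and 122 in the double-deficient libraries. Every double-deficient library was below every Foxp3-deficient one. The level was 1.24-fold lower (−0.31 on the log2 scale with SE 0.09, adjusted p = 0.0180 by edgeR). Wipi2 (chr5:142627698-142670588), which binds the marked membrane and recruits Atg16l1, read 156, 148, 158 and 142 CPM in the WT, 159, 127, 134 and 122 in the Foxp3-deficient and 124, 125, 123 and 122 in the double-deficient libraries. The double-deficient libraries lay close together and below all WT libraries, and the Foxp3-deficient ones spread over both. Wipi2 was 1.22-fold lower in double-deficient than in WT cells (−0.29 on the log2 scale with SE 0.08, adjusted p = 0.0157 by edgeR). Atg9a (chr1:75180860-75192196), the membrane protein whose vesicles seed the structure, read 27.2 ± 3.68 CPM in WT cells, 28.7 ± 6.68 in Foxp3-deficient cells and 20.9 ± 3.12 in double-deficient cells and was 1.38-fold lower in the last than in the second group (−0.46 on the log2 scale with SE 0.16, adjusted p = 0.0470 by edgeR).

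Ulk1, the initiating kinase, read 46.5 to 48.9 CPM in WT and 51.3 to 74.5 in Foxp3-deficient libraries with no overlap, at an edgeR adjusted p of 0.0595. Becn1, the core of the lipid kinase complex, read 142 to 159 against 169 to 198 CPM, also with no overlap, at 0.0625 by edgeR's adjusted p. Ulk1, Becn1, Atg2a (edgeR adjusted p = 0.0590) and Psap (edgeR adjusted p = 0.0567) are the 4 members that DESeq2 called beside the 6 of edgeR. Ulk2, Atg13 and Atg14 were not called, with log2 fold changes from −0.17 to 0.11. Wipi1, a relative of Wipi2, was at or under 0.514 CPM in every library, with 0 reads in Foxp3-deficient 3, Foxp3-deficient 5 and double-deficient 3. It had 33 reads in WT libraries together (0.246 to 0.514 CPM), 5 in Foxp3-deficient (0 to 0.217) and 7 in double-deficient ones (0 to 0.149). With so few reads the difference was not tested. The Atg9a call was lost without any of 10 libraries, that is all but Foxp3-deficient 3 and double-deficient 3 (log2 fold change −0.49 to −0.29, adjusted p 0.0513 to 0.163), that of Atg2a without double-deficient 4 or 5 (log2 fold change −0.30 to −0.26, adjusted p 0.0505 to 0.0729) and that of Wipi2 without WT 4 (log2 fold change −0.27, adjusted p 0.0510).

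Of the 6 members of the conjugation machinery, none passed in Foxp3-deficient against WT cells by edgeR, DESeq2 or limma-voom, and none had an unadjusted edgeR p under 0.05. In double-deficient cells 2 were higher and 1 lower than in either other group. Of all genes, 13.9% were higher and 13.3% lower against Foxp3-deficient cells, and 15.8% and 16.8% against WT cells. Atg5 (chr10:44268358-44364291), which with Atg12 and Atg16l1 forms the complex that places ATG8 proteins on the membrane, read 93.8, 87.4, 92.4 and 104 CPM in the WT, 80.8, 109, 87.7 and 104 in the Foxp3-deficient and 124, 138, 130.5 and 145 in the double-deficient libraries. All 4 double-deficient libraries were above all 8 others. Atg5 was 1.41-fold higher than in Foxp3-deficient cells (0.49 on the log2 scale with SE 0.10, adjusted p = 0.00306 by edgeR) and 1.42-fold higher than in WT cells (0.51 on the log2 scale with SE 0.10, adjusted p = 0.00140 by edgeR). Atg3 (chr16:45158785-45188538), the enzyme that carries ATG8 proteins to their lipid, read 114, 126, 107 and 141 CPM in the WT, 93.2, 146, 135 and 149 in the Foxp3-deficient and 157, 179, 169.8 and 175 in the double-deficient libraries. Again the double-deficient libraries were above all others, while Foxp3-deficient 1 was the lowest of the 12. The difference was 1.30-fold against Foxp3-deficient (0.38 on the log2 scale with SE 0.13, adjusted p = 0.0378 by edgeR) and 1.40-fold against WT cells (0.48 on the log2 scale with SE 0.13, adjusted p = 0.00980 by edgeR). Atg16l1 (chr1:87755870-87792428), the partner of Atg5 that sets where conjugation takes place, read 80.0, 103, 89.6 and 86.9 CPM in the WT, 98.1, 99.5, 78.2 and 84.2 in the Foxp3-deficient and 76.3, 56.0, 66.5 and 62.0 in the double-deficient libraries. It went the other way, with all double-deficient libraries below all others. Atg16l1 was 1.38-fold lower than in Foxp3-deficient cells (−0.46 on the log2 scale with SE 0.11, adjusted p = 0.00874 by edgeR) and 1.38-fold lower than in WT cells (−0.46 on the log2 scale with SE 0.11, adjusted p = 0.00620 by edgeR). Atg12, the other part of that complex, read 92.3 ± 2.40, 95.7 ± 3.22 and 100.1 ± 8.92 CPM and was not called. Atg7, the activating enzyme, and Atg4b, the protease that trims ATG8 proteins, were not called either, with log2 fold changes from −0.16 to 0.21. By DESeq2, and with the trend in length and GC content removed, Atg4b was called higher in double-deficient than in WT cells, at 0.29 (edgeR adjusted p = 0.0140) in the latter fit. The Atg3 call against Foxp3-deficient cells was lost without WT 3, Foxp3-deficient 1 or 4, or double-deficient 3, 4 or 5 (log2 fold change 0.25 to 0.39, adjusted p 0.0504 to 0.0790). The Atg16l1 call against Foxp3-deficient cells was lost without Foxp3-deficient 1 and 3 together.

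**Figure D3:**
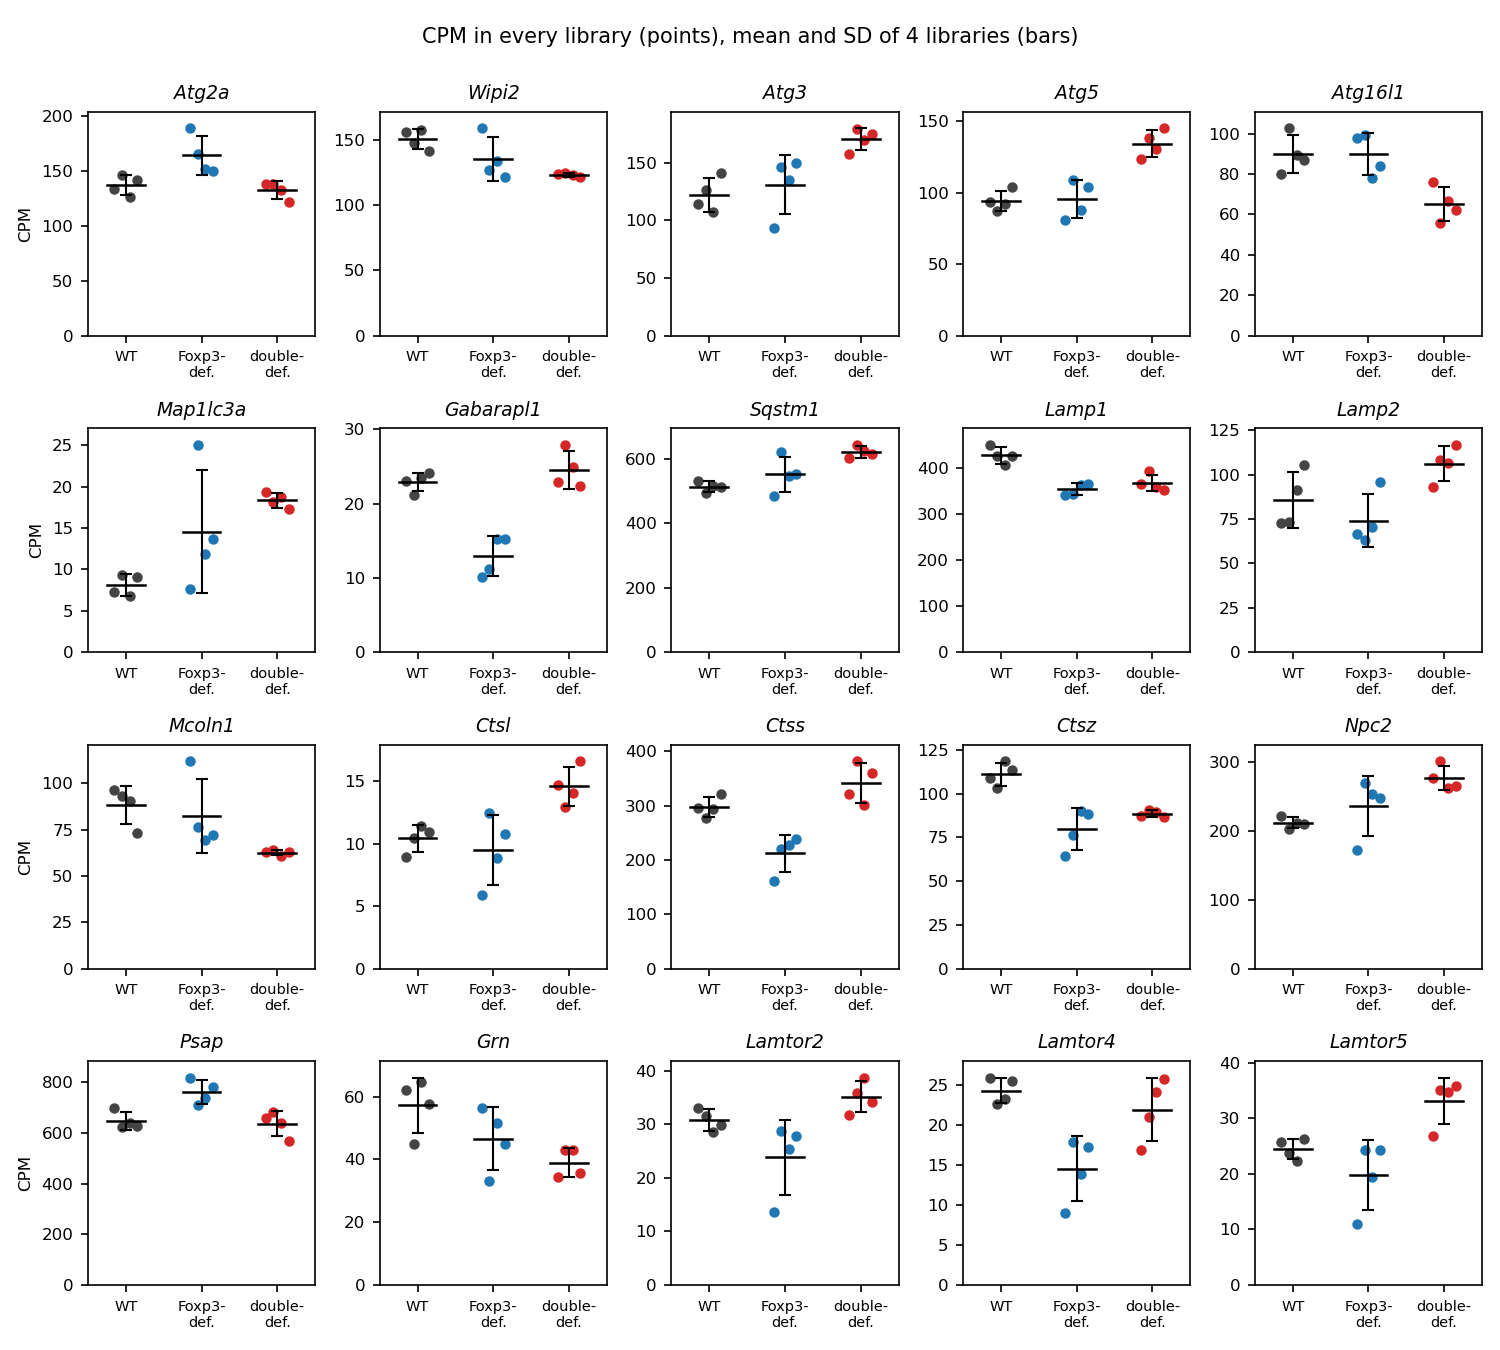
CPM (vertical axes, from 0) of the 20 members with the smallest adjusted p in every library (points), with mean and SD of 4 libraries (bars), by genotype (horizontal axes). Gabarapl1 and Ctss were low in Foxp3-deficient libraries alone, and Atg3, Atg5 and Ctsl were highest and Atg16l1 and Mcoln1 lowest in double-deficient libraries.

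ATG8 proteins coat the membrane and hold cargo receptors. Of their 5 genes, Map1lc3a was higher and Gabarapl1 lower in Foxp3-deficient than in WT cells, and Gabarap and Gabarapl1 were higher in double-deficient cells than in Foxp3-deficient ones. Gabarapl1 (chr6:129533160-129542346) read 23.0, 21.2, 23.4 and 24.1 CPM in the WT, 10.1, 11.2, 15.2 and 15.3 in the Foxp3-deficient and 22.9, 27.9, 24.9 and 22.4 in the double-deficient libraries. Every Foxp3-deficient library was below every library of the other groups, and WT and double-deficient libraries overlapped. Gabarapl1 was 1.77-fold lower in Foxp3-deficient than in WT cells (−0.82 on the log2 scale with SE 0.15, adjusted p = 0.00101 by edgeR) and 1.89-fold higher in double-deficient cells than in Foxp3-deficient ones (0.92 on the log2 scale with SE 0.15, adjusted p = 0.000762 by edgeR). Between double-deficient and WT cells its log2 fold change was 0.10 (edgeR adjusted p = 0.631). Both calls share the Foxp3-deficient libraries, and both were kept without any single library and in every other fit. The gene shares exon bases with 1700101I11Rik on the other strand.

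Map1lc3a (chr2:155276297-155278073), 1 of the LC3 forms, read 7.21, 9.30, 6.72 and 9.10 CPM in the WT, 7.63, 25.1, 11.9 and 13.7 in the Foxp3-deficient and 19.4, 18.1, 18.7 and 17.3 in the double-deficient libraries. The double-deficient libraries lay together and above all WT libraries. Among the Foxp3-deficient ones replicate 3 was the highest of all 12 and replicate 1 lay within the WT range. The difference from WT was 2.28-fold in double-deficient (1.19 on the log2 scale with SE 0.26, adjusted p = 0.00354 by edgeR) and 1.80-fold in Foxp3-deficient cells (0.85 on the log2 scale with SE 0.26, adjusted p = 0.0442 by edgeR). The latter call was lost without any of 10 libraries, all but Foxp3-deficient 1 and 4 (log2 fold change 0.46 to 0.91, adjusted p 0.0553 to 0.130), and also by limma-voom. Gabarap (chr11:69991143-69994951) read 162 ± 17.3, 141 ± 44.7 and 209.8 ± 18.4 CPM, with Foxp3-deficient 1 the lowest library at 76.7, and was 1.49-fold higher in double-deficient cells than in Foxp3-deficient ones (0.57 on the log2 scale with SE 0.19, adjusted p = 0.0393 by edgeR). That call was lost without WT 1 or 3, Foxp3-deficient 4, or double-deficient 3, 4 or 5 (log2 fold change 0.54 to 0.59, adjusted p 0.0521 to 0.0867). Map1lc3b, the LC3 form most used as a marker of autophagy, read 232 ± 17.7, 244 ± 21.0 and 215 ± 9.55 CPM and was not called; without Foxp3-deficient 1 it was called lower in double-deficient cells than in Foxp3-deficient ones. Gabarapl2 was not called either, at 12.1 ± 0.499, 11.8 ± 2.02 and 12.8 ± 1.10 CPM.

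Sqstm1 (chr11:50199366-50210827), the cargo receptor p62 that is itself degraded by autophagy, read 532, 493, 515 and 513 CPM in the WT, 485, 619.7, 545 and 553 in the Foxp3-deficient and 601, 643, 623 and 614 in the double-deficient libraries. All double-deficient libraries were above all WT ones, and the Foxp3-deficient libraries spread over both ranges. Sqstm1 was 1.21-fold higher in double-deficient than in WT cells (0.27 on the log2 scale with SE 0.08, adjusted p = 0.0125 by edgeR). Against Foxp3-deficient cells the log2 fold change was 0.17 (edgeR adjusted p = 0.102).

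Among lysosomal membrane proteins, Lamp1 was lower in both deficient groups than in WT cells, and Mcoln1 was lower in double-deficient cells than in either other group. Lamp1 (chr8:13159161-13175338), a main glycoprotein of the lysosomal membrane, read 452, 427, 406 and 427 CPM in the WT, 343, 344, 364 and 367 in the Foxp3-deficient and 366, 394, 360.1 and 353 in the double-deficient libraries. All WT libraries were above all 8 others, and the deficient groups overlapped. Lamp1 was 1.21-fold lower in Foxp3-deficient (−0.27 on the log2 scale with SE 0.07, adjusted p = 0.0107 by edgeR) and 1.16-fold lower in double-deficient than in WT cells (−0.22 on the log2 scale with SE 0.07, adjusted p = 0.0210 by edgeR). Lamp2 (chrX:38401357-38456454), its relative that also serves as a receptor for protein uptake, read 72.8, 73.2, 91.3 and 106 CPM in the WT, 66.6, 62.8, 70.6 and 95.7 in the Foxp3-deficient and 93.1, 108, 107 and 117 in the double-deficient libraries. The groups overlapped, since Foxp3-deficient 5 lay above double-deficient 2. Lamp2 was 1.43-fold higher in double-deficient cells than in Foxp3-deficient ones (0.52 on the log2 scale with SE 0.14, adjusted p = 0.0151 by edgeR). Mcoln1 (chr8:3500457-3515232), the calcium channel of lysosomes, read 96.3, 92.8, 90.5 and 73.2 CPM in the WT, 112, 76.5, 69.2 and 72.2 in the Foxp3-deficient and 62.7, 63.8, 60.8 and 62.7 in the double-deficient libraries. The double-deficient libraries lay within a narrow range below all others, and Foxp3-deficient 1 was the highest of the 12. The gene was 1.41-fold lower in double-deficient than in WT cells (−0.50 on the log2 scale with SE 0.13, adjusted p = 0.0108 by edgeR) and 1.32-fold lower than in Foxp3-deficient cells (−0.40 on the log2 scale with SE 0.13, adjusted p = 0.0377 by edgeR). Npc1, which exports cholesterol from the lysosome, read 20.3 ± 0.762, 23.8 ± 5.51 and 18.4 ± 2.71 CPM and was not called; without Foxp3-deficient 3 or 5 it was called lower in double-deficient cells than in Foxp3-deficient ones. The Mcoln1 call against Foxp3-deficient cells was lost without WT 3, Foxp3-deficient 1 or any double-deficient library (log2 fold change −0.40 to −0.22, adjusted p 0.0503 to 0.112), and that of Lamp1 against WT was lost for double-deficient cells without WT 1 or double-deficient 4 or 5 (log2 fold change −0.20 in each, adjusted p 0.0578 to 0.0596). Without Foxp3-deficient 1 and 3 together, the Lamp1 call in Foxp3-deficient and the Lamp2 call in double-deficient cells were lost too.

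The cathepsins, the proteases of the lysosome, differed in direction. Ctss and Ctsz were lower in Foxp3-deficient than in WT cells, Ctss and Ctsl were higher in double-deficient cells than in Foxp3-deficient ones, and against WT cells double-deficient cells had more Ctsd and less Ctsz. Summed, the 6 cathepsins read 1724 ± 78.0 CPM in WT cells, 1675 ± 213 in Foxp3-deficient cells and 1812 ± 122 in double-deficient cells. Ctss (chr3:95526786-95556403), known for its part in antigen presentation, read 295, 278, 294 and 321 CPM in the WT, 162, 220.0, 228 and 238 in the Foxp3-deficient and 321, 382, 300.5 and 360.4 in the double-deficient libraries. Every Foxp3-deficient library was below all libraries of the other groups. Ctss was 1.40-fold lower in Foxp3-deficient than in WT cells (−0.49 on the log2 scale with SE 0.11, adjusted p = 0.00662 by edgeR) and 1.61-fold higher in double-deficient cells than in Foxp3-deficient ones (0.69 on the log2 scale with SE 0.11, adjusted p = 0.000860 by edgeR). Those comparisons share the Foxp3-deficient libraries. Ctsz (chr2:174427493-174439039), a carboxypeptidase, read 109, 103, 119 and 114 CPM in the WT, 64.1, 76.4, 89.9 and 88.6 in the Foxp3-deficient and 87.2, 90.9, 89.7 and 86.4 in the double-deficient libraries. All WT libraries were above all 8 others. It was 1.39-fold lower in Foxp3-deficient (−0.48 on the log2 scale with SE 0.10, adjusted p = 0.00326 by edgeR) and 1.25-fold lower in double-deficient cells (−0.33 on the log2 scale with SE 0.10, adjusted p = 0.0192 by edgeR). Ctsl (chr13:64359337-64370890), an endopeptidase, read 8.91, 10.5, 11.4 and 11.0 CPM in the WT, 5.90, 12.5, 8.89 and 10.8 in the Foxp3-deficient and 14.8, 13.0, 14.1 and 16.6 in the double-deficient libraries. The double-deficient libraries were the 4 highest. Ctsl was 1.54-fold higher than in Foxp3-deficient cells (0.62 on the log2 scale with SE 0.19, adjusted p = 0.0279 by edgeR). Ctsd (chr7:142375911-142388038), the main aspartic protease of lysosomes, read 481 ± 21.2, 577 ± 108 and 589 ± 26.7 CPM and was 1.22-fold higher in double-deficient than in WT cells (0.29 on the log2 scale with SE 0.10, adjusted p = 0.0400 by edgeR). Ctsa and Ctsb were not called, with log2 fold changes from −0.15 to 0.08. The Ctsl call was lost without Foxp3-deficient 1 or 4 or double-deficient 5 (log2 fold change 0.45 to 0.59, adjusted p 0.0555 to 0.0776), that of Ctsz in double-deficient cells without WT 4 (log2 fold change −0.29, adjusted p 0.0641) and that of Ctsd without any of the 8 WT and double-deficient libraries (log2 fold change 0.26 to 0.31, adjusted p 0.0511 to 0.113).

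Cathepsins are also abundant in macrophages and in other antigen-presenting cells, so their markers are given here. Of 11 macrophage and monocyte markers in the table, 9 were under 1 CPM on average in WT and 10 in each other group. Lyz2 read 0.533 ± 0.432, 0.148 ± 0.128 and 0.319 ± 0.122 CPM, and Adgre1 had 0 reads in WT and Foxp3-deficient libraries and 9 reads in double-deficient libraries together. The list summed to 26.2 to 43.0 CPM in WT libraries, 53.8 to 105 in Foxp3-deficient libraries and 106 to 160.2 in double-deficient libraries, nearly all of it Ccr2, a chemokine receptor that T cells also make. The 6 dendritic cell markers summed to 4.43 to 8.08 CPM in WT libraries, 2.15 to 5.51 in Foxp3-deficient libraries and 4.26 to 7.07 in double-deficient libraries, most of it Zbtb46, and Flt3, Itgax, Siglech and Cd209a were under 1 CPM on average in each group. Of the B cell markers, 5 could be tested: Cd79b, Ighm and Bank1 were lower in Foxp3-deficient than in WT cells, and Cd79b was higher and Cd22 lower in double-deficient cells than in Foxp3-deficient ones. Ighm, an immunoglobulin gene that B cells make in large amounts, read 1368 ± 96.7 CPM in WT cells, 733 ± 69.7 in Foxp3-deficient cells and 852 ± 72.5 in double-deficient cells. Cd79b, part of the B cell receptor, read 21.3 ± 2.53, 8.49 ± 1.32 and 15.8 ± 2.42 CPM. The 5 plasma cell markers summed to 244 to 271, 178 to 218 and 227 to 257 CPM, most of it Xbp1. Jchain, which joins secreted antibodies, read 1.27 ± 1.30, 0.902 ± 0.744 and 11.6 ± 2.73 CPM and was 13.2-fold higher in double-deficient cells than in Foxp3-deficient ones (edgeR adjusted p = 0.00186). On average Ctss, Ighm, Cd79b, Jchain, the dendritic sum and the plasma cell sum were lowest in Foxp3-deficient libraries, though Jchain was not called against WT there. Other markers ran otherwise. Cd22, at 12.8 ± 1.11, 8.75 ± 4.69 and 1.90 ± 1.82 CPM, was lowest in double-deficient libraries. So was Bank1, at 5.82 ± 1.63, 2.92 ± 0.864 and 2.18 ± 0.505 CPM. The plasma cell marker Sdc1, at 0.650 ± 0.264, 1.01 ± 0.342 and 2.19 ± 0.291 CPM, and the macrophage and monocyte sum were lowest in WT. The part of RNA from these cells in the cathepsin results was not tested.

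**Figure D4:**
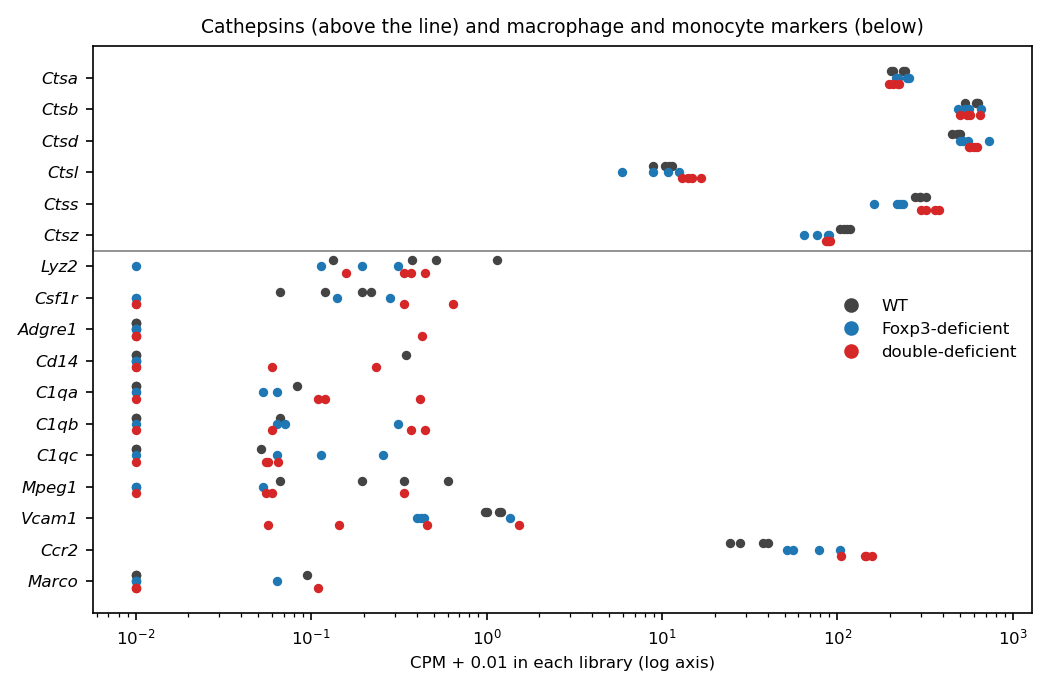
CPM + 0.01 in each library (log axis) of the 6 cathepsins and, under the line, of 11 macrophage and monocyte markers. The cathepsins other than Ctsl lie above 60 CPM in every library, and of the markers only Ccr2, Vcam1 and Lyz2 reach 1 CPM in any library.

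None of the 5 other luminal proteins passed edgeR's test in Foxp3-deficient against WT cells, where 13.7% of all genes passed. Psap alone had an unadjusted edgeR p under 0.05 there and was called by DESeq2 and limma-voom. Psap (chr10:60277627-60302597), the precursor of saposins that help break down sphingolipids, read 700.2, 624, 638 and 626 CPM in the WT, 818, 709, 736 and 782 in the Foxp3-deficient and 659, 682, 638 and 568 in the double-deficient libraries. Every Foxp3-deficient library was above every library of the other groups. Psap was lower in double-deficient cells than in Foxp3-deficient ones (−0.26 on the log2 scale with SE 0.08, adjusted p = 0.0243 by edgeR). Npc2 (chr12:84754562-84773152), which hands cholesterol to Npc1, read 222, 203, 212 and 210.5 CPM in the WT, 172, 271, 254 and 249 in the Foxp3-deficient and 276, 302, 262 and 266 in the double-deficient libraries. All double-deficient libraries were above all WT ones, and Foxp3-deficient 1 was the lowest of the 12. Npc2 was 1.31-fold higher in double-deficient than in WT cells (0.39 on the log2 scale with SE 0.11, adjusted p = 0.0157 by edgeR). Grn (chr11:102430315-102437048), the progranulin precursor of lysosomal granulins, read 62.0, 44.9, 64.7 and 57.7 CPM in the WT, 56.5, 33.3, 51.5 and 44.9 in the Foxp3-deficient and 34.5, 42.9, 42.9 and 35.8 in the double-deficient libraries. All double-deficient libraries were below all WT libraries, and Foxp3-deficient 3 was the lowest of the 12. Grn was 1.47-fold lower in double-deficient than in WT cells (−0.56 on the log2 scale with SE 0.15, adjusted p = 0.0125 by edgeR). The hydrolases Hexa and Gusb were not called. Their WT and double-deficient libraries did not overlap, with Hexa at 79.1 to 84.1 against 67.8 to 76.1 CPM (edgeR adjusted p = 0.0745) and Gusb at 59.0 to 61.1 against 50.4 to 53.1 CPM (edgeR adjusted p = 0.0737). Without Foxp3-deficient 1 both were called lower there, and with the trend in length and GC content removed Hexa was, at −0.21 (edgeR adjusted p = 0.0331). The Psap call was lost without Foxp3-deficient 1 or double-deficient 4 or 5 (log2 fold change −0.25 to −0.20, adjusted p 0.0558 to 0.0889).

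Of 5 subunits of Ragulator, the complex that ties the Rag proteins to the lysosome, 3 rose and none fell in double-deficient cells against Foxp3-deficient ones, where 13.9% of all genes rose and 13.3% fell. With the trend in length and GC content removed, Lamtor5 alone stayed higher and Lamtor3 was lower. Lamtor5 (chr3:107278858-107284082) read 25.8, 23.7, 22.3 and 26.2 CPM in the WT, 11.0, 24.3, 19.5 and 24.3 in the Foxp3-deficient and 26.8, 35.0, 34.7 and 35.9 in the double-deficient libraries. The double-deficient libraries were above all others and Foxp3-deficient 1 was the lowest. Lamtor5 was 1.67-fold higher (0.74 on the log2 scale with SE 0.19, adjusted p = 0.0127 by edgeR). Lamtor4 (chr5:138255482-138259398) read 25.8, 22.5, 23.2 and 25.5 CPM in the WT, 9.04, 17.9, 13.8 and 17.2 in the Foxp3-deficient and 16.8, 21.0, 24.0 and 25.7 in the double-deficient libraries. Every Foxp3-deficient library was below every WT library, and double-deficient libraries overlapped both. Lamtor4 was 1.67-fold lower in Foxp3-deficient than in WT cells (−0.74 on the log2 scale with SE 0.19, adjusted p = 0.0136 by edgeR) and 1.51-fold higher in double-deficient cells than in Foxp3-deficient ones (0.59 on the log2 scale with SE 0.19, adjusted p = 0.0301 by edgeR). Lamtor2 (chr3:88549819-88553074) read 33.1, 31.6, 28.5 and 29.8 CPM in the WT, 13.6, 28.8, 25.3 and 27.7 in the Foxp3-deficient and 31.8, 35.8, 38.7 and 34.1 in the double-deficient libraries. All double-deficient libraries were above all Foxp3-deficient ones and overlapped WT, and Foxp3-deficient 1 was again the lowest. Lamtor2 was 1.47-fold higher in double-deficient cells than in Foxp3-deficient ones (0.56 on the log2 scale with SE 0.18, adjusted p = 0.0305 by edgeR). Lamtor1, which holds the complex in the membrane, and Lamtor3 were not called, with log2 fold changes from −0.22 to 0.15. Flcn (chr11:59791408-59810016), folliculin, which acts on the Rag proteins, read 122 ± 4.32, 112 ± 11.0 and 102 ± 10.4 CPM and was 1.19-fold lower in double-deficient than in WT cells (−0.26 on the log2 scale with SE 0.09, adjusted p = 0.0393 by edgeR). The calls against Foxp3-deficient cells were lost without Foxp3-deficient 4 or double-deficient 3, 4 or 5 for Lamtor2 (log2 fold change 0.52 to 0.59, adjusted p 0.0542 to 0.0720) and without Foxp3-deficient 1 or 4 or double-deficient 4 or 5 for Lamtor4 (log2 fold change 0.42 to 0.57, adjusted p 0.0613 to 0.0869). The Flcn call was lost without WT 1, 3 or 4 or double-deficient 3, 4 or 5 (log2 fold change −0.26 to −0.20, adjusted p 0.0758 to 0.137).

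Several of these differences moved with transcript length. Across 13070 genes with an exonic length, in double-deficient against Foxp3-deficient cells the log2 fold change had a Spearman rho of −0.336 with length, and −0.503 over the 43 members. These are correlations across genes of the same libraries. The median log2 fold change of all genes ran from 0.28 in the shortest of 5 equal classes of length to −0.26 in the longest, and that of the members from 0.56 (9 members) to −0.20 (5 members). The 4 shortest of the 10 risen members were Lamtor2 at 734, Lamtor4 at 877, Lamtor5 at 884 and Gabarap at 1351 bases. Among the fallen ones Atg2a had 6371 and Atg9a 4383 bases. Others went against the trend: Ctsl with 6168 and Lamp2 with 5039 bases rose, and Mcoln1 with 2065 bases fell. Psap and Atg16l1, which also fell, had 2744 and 3178 bases. For Foxp3-deficient against WT cells rho was 0.126 over all genes and 0.446 over the members, and for double-deficient against WT cells −0.227 and −0.104.

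With each library's trend in length and GC content removed, 10 members passed in Foxp3-deficient against WT cells (16% of all genes), 10 in double-deficient against Foxp3-deficient cells (19.9%) and 16 in double-deficient against WT cells (31.7%). Against Foxp3-deficient cells the log2 fold changes of double-deficient cells then were 0.28 (edgeR adjusted p = 0.0895) for Lamtor2, 0.30 (edgeR adjusted p = 0.0963) for Lamtor4 and 0.36 (edgeR adjusted p = 0.0560) for Gabarap. Those of Atg3, Atg9a and Atg2a were 0.09 (edgeR adjusted p = 0.503), −0.28 (edgeR adjusted p = 0.153) and −0.02 (edgeR adjusted p = 0.857). All 6 calls were thus lost, as were those of Wipi2 at −0.13 (edgeR adjusted p = 0.114) and Flcn at −0.18 (edgeR adjusted p = 0.0868) in double-deficient against WT cells. Gabarapl1, Ctss, Atg5, Atg16l1, Lamp2, Lamtor5, Ctsl, Mcoln1 and Psap kept theirs, with Gabarapl1 at 0.83 (edgeR adjusted p = 0.000996) and Ctss at 0.39 (edgeR adjusted p = 0.00345). Lamtor3 was called lower here and not without the removal, at −0.52 (edgeR adjusted p = 0.00914) against Foxp3-deficient and −0.35 (edgeR adjusted p = 0.0361) against WT cells. In Foxp3-deficient against WT cells all 6 members stayed called and Psap, Ulk1 and Becn1 were added as higher and Wipi2 as lower. In double-deficient against WT cells Ulk1, Atg4b and Ctsl were added as higher, and Hexa and Lamtor3 as lower. Before the removal, the slope of log2 CPM on log2 length was 0.00724 to 0.0343 in WT libraries and −0.104 to −0.0347 in double-deficient ones. In Foxp3-deficient 1, 3, 4 and 5 it was 0.167, −0.0490, 0.0472 and 0.0292, with Foxp3-deficient 1 the highest of all 12 libraries. Whether the trend came from the cells or from the libraries was not tested.

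**Figure D5:**
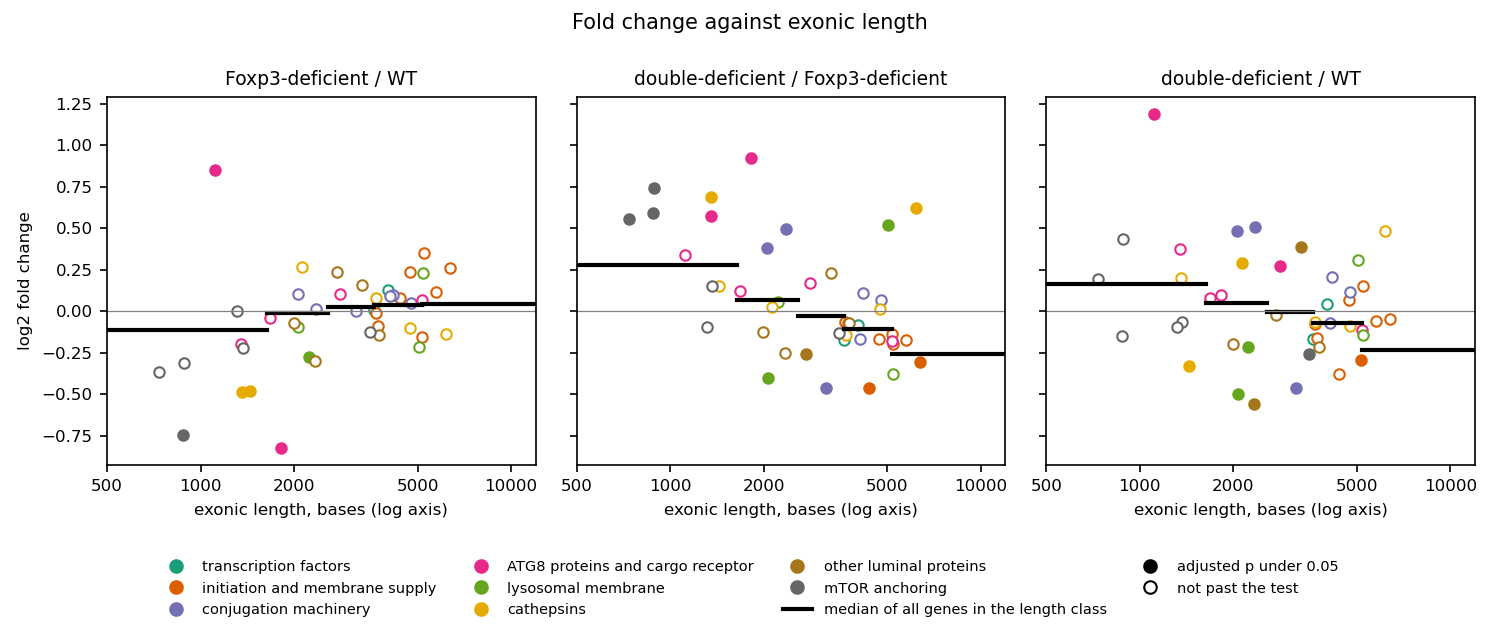
Log2 fold change (vertical axis) against exonic length in bases (log axis) of the 43 tested members (points, coloured by role, filled at an adjusted p under 0.05) in the 3 comparisons, with the median of all genes in each of 5 classes of length (black lines; the first starts and the last ends beyond the axis). In the middle panel the lines fall from 0.28 to −0.26 and the short genes Lamtor2, Lamtor4 and Lamtor5 lie above the first.

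Levels can be set side by side only per length. Among ATG8 proteins in WT cells, Gabarap stood at 119.7 CPM per kilobase, Map1lc3b at 44.9, Gabarapl1 at 12.6, Map1lc3a at 7.27 and Gabarapl2 at 7.22, and the last 2 did not differ beyond their libraries' ranges. In Foxp3-deficient cells Map1lc3a at 13.1, Gabarapl1 at 7.11 and Gabarapl2 at 7.02 overlapped from each to the next. In double-deficient cells Map1lc3a at 16.5 stood above Gabarapl1 at 13.5 without overlap. Among cathepsins in WT cells the order was Ctsd (226 CPM per kilobase), Ctss (219), Ctsb (127), Ctsz (77.1), Ctsa (60.6) and Ctsl (1.69), with the first 2 overlapping. In Foxp3-deficient cells Ctss at 156 no longer reached Ctsd at 271, and in double-deficient cells the pair overlapped again at 251 and 277. Psap at 236 had the highest mean per kilobase of the members in WT cells, with libraries that overlapped those of Ctsd and Ctss, and Lamp1 at 192 led the lysosomal membrane proteins.

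The wider pathway was read from 124 further genes that could be tested. In Foxp3-deficient against WT cells 15 (12.1%) passed, 6 higher and 9 lower, against 13.7% of all genes. In double-deficient against Foxp3-deficient cells 38 (30.6%) passed, 17 higher and 21 lower, against 27.2%. In double-deficient against WT cells 44 (35.5%) passed, 13 higher and 31 lower, against 32.6%. The median log2 fold changes were 0.00, −0.04 and −0.10, against 0.00, −0.02 and −0.03 for all genes. Leaving out double-deficient 3 or 5 lowered the second count to 25 or 23, and leaving out WT 4 or double-deficient 5 lowered the third to 28 each. Beside the counts of the 5 lists that follow stand 6.99% of all genes higher and 6.74% lower in Foxp3-deficient against WT cells, 13.9% and 13.3% in double-deficient against Foxp3-deficient cells, and 15.8% and 16.8% in double-deficient against WT cells.

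Of 34 further lysosomal hydrolases, 4 rose and 2 fell in Foxp3-deficient against WT cells, 7 rose and 5 fell in double-deficient against Foxp3-deficient cells, and 5 were higher and 14 lower in double-deficient than in WT cells (55.9% called, against 32.6% of all genes). Lgmn, the asparaginyl endopeptidase that matures cathepsins, had a log2 fold change of 1.19 (edgeR adjusted p = 2e-05) in Foxp3-deficient and 1.38 (edgeR adjusted p = 3.29e-06) in double-deficient against WT cells. In Foxp3-deficient against WT cells, Ctsf, another cathepsin, stood at −1.63 (edgeR adjusted p = 0.000453) and Sgsh, a heparan sulfatase, at 0.72 (edgeR adjusted p = 0.00138). Acp5, an acid phosphatase, stood at 0.57 (edgeR adjusted p = 0.00118) against Foxp3-deficient and 0.94 (edgeR adjusted p = 4.95e-06) against WT cells. Asah1, the acid ceramidase, stood at 0.44 (edgeR adjusted p = 0.00183) and 0.57 (edgeR adjusted p = 0.000102) in the same comparisons. Idua, which cuts iduronic acid from glycosaminoglycans, fell by 0.72 on the log2 scale in double-deficient against Foxp3-deficient cells (edgeR adjusted p = 0.00301).

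Of 18 further genes of the lysosomal membrane and of sorting, 1 rose and 4 fell with loss of Foxp3, 2 rose and 4 fell in double-deficient against Foxp3-deficient cells, and 5 were lower and none higher in double-deficient than in WT cells. Laptm4b, a lysosomal transmembrane protein, had a log2 fold change of −1.31 (edgeR adjusted p = 0.000194) in Foxp3-deficient against WT cells and 0.78 (edgeR adjusted p = 0.00990) in double-deficient against Foxp3-deficient cells. Its relative Laptm4a stood at −0.61 (edgeR adjusted p = 0.000619) and the iron transporter Slc11a2 at 0.58 (edgeR adjusted p = 0.00182) in the first comparison. Gnptab, which makes the mannose 6-phosphate tag of lysosomal enzymes, stood at −0.51 (edgeR adjusted p = 0.0130) in double-deficient against Foxp3-deficient cells. Clcn7, the chloride exchanger of lysosomes, stood at −0.47 (edgeR adjusted p = 0.0154) there and at −0.46 (edgeR adjusted p = 0.0126) against WT cells. Against WT cells Cln3 stood at −0.71 (edgeR adjusted p = 0.000117) and the cystine exporter Ctns at −0.37 (edgeR adjusted p = 0.0287).

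Of 17 subunits of the V-ATPase, the proton pump that acidifies lysosomes, 1 fell with loss of Foxp3, 4 rose and 2 fell in double-deficient against Foxp3-deficient cells, and 3 were higher and 2 lower in double-deficient than in WT cells. Atp6v0a1, a form of the large membrane subunit, read 13.0 ± 2.32 CPM in WT cells, 4.05 ± 0.999 in Foxp3-deficient cells and 4.41 ± 0.940 in double-deficient cells, with log2 fold changes against WT of −1.68 (edgeR adjusted p = 5.91e-05) and −1.57 (edgeR adjusted p = 8.97e-05). The related form Atp6v0a2 stood at −0.50 (edgeR adjusted p = 0.00271) in double-deficient against Foxp3-deficient cells, where Atp6v1d stood at 0.98 (edgeR adjusted p = 0.00362) and Atp6v0e at 0.77 (edgeR adjusted p = 0.0139). Against WT cells Atp6v1h, a subunit of the cytosolic part, stood at 0.53 (edgeR adjusted p = 0.00249) and Atp6v1g1 at 0.45 (edgeR adjusted p = 0.0227).

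Of 25 genes for Rag, GATOR, folliculin-partner and TSC proteins, which pass amino acid and growth factor signals to mTOR complex 1, none rose and 2 fell with loss of Foxp3, 1 rose and 5 fell in double-deficient against Foxp3-deficient cells, and 4 were lower and none higher in double-deficient than in WT cells. Rragd, a Rag GTPase that acts on TFEB and TFE3, read 24.0 ± 2.07 CPM in WT cells, 7.11 ± 1.04 in Foxp3-deficient cells and 10.4 ± 1.94 in double-deficient cells. Its log2 fold change against WT was −1.76 (edgeR adjusted p = 2.09e-06) and −1.21 (edgeR adjusted p = 5e-05). Sesn1, a sestrin that binds GATOR, stood at −0.41 (edgeR adjusted p = 0.0131) in Foxp3-deficient against WT cells. Tsc1 and Tsc2, which together restrain mTOR complex 1, stood at −0.63 (edgeR adjusted p = 0.00332) and −0.40 (edgeR adjusted p = 0.00993) in double-deficient against Foxp3-deficient cells, and Tsc1 at −0.70 (edgeR adjusted p = 0.000815) against WT cells. Depdc5, part of the GATOR complex that inhibits the Rag proteins, stood at −0.59 (edgeR adjusted p = 0.00553) and −0.45 (edgeR adjusted p = 0.0165).

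Of 29 further core autophagy genes, 1 rose and none fell with loss of Foxp3, 3 rose and 5 fell in double-deficient against Foxp3-deficient cells, and 5 were higher and 6 lower in double-deficient than in WT cells. Tecpr1, which helps autophagosomes fuse with lysosomes, stood at 0.38 (edgeR adjusted p = 0.0298) in Foxp3-deficient against WT cells. Epg5, a tether in the same fusion step, read 32.3 ± 2.78, 43.8 ± 9.21 and 21.4 ± 5.04 CPM, with a log2 fold change of −1.03 (edgeR adjusted p = 0.00107) in double-deficient against Foxp3-deficient cells. Atg2b, the relative of Atg2a, stood at −0.70 (edgeR adjusted p = 0.00128) there, and Vmp1, an endoplasmic reticulum protein needed for the membrane to form, at 0.51 (edgeR adjusted p = 0.00254). Against WT cells Vmp1 stood at 0.40 (edgeR adjusted p = 0.00717), Atg101, a subunit of the Ulk1 complex, at 0.64 (edgeR adjusted p = 0.00359) and Pik3r4, a subunit of the lipid kinase complex, at −0.46 (edgeR adjusted p = 0.0109).

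The counting has limits for some members. The strand setting of the counting is not given in the sources used here, and 16 members share exon bases with another annotated gene, among them the called members Gabarapl1, Sqstm1 (with Mrnip), Lamp1 (Grtp1), Ctsz (Nelfcd), Ctsd (Gm49369), Ctsl (Gm49230 and Gm47123), Grn (Fam171a2) and Atg9a (Gm29253 and Ankzf1). Their counts are uncertain where the overlapping gene is expressed. All values are mRNA, and neither the flow of cargo through autophagy nor protein amounts or lysosomal acidity were measured.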

How the data were processed

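RNA of 12 sorted samples was made into cDNA by SMART-Seq v4, per the labels' protocols. The authors deposited raw counts, whole numbers of reads for each gene, not normalized. Reads were aligned, per the submitters' processing notes, to mm10 (GRCm38) with STAR 2.5.1b and counted with HTSeq. The sources used here give neither the version of HTSeq nor the strand setting or Gencode release. HTSeq summary rows name no gene and were used only for quality shares: 5.0% to 8.18% of reads on average lay outside genes and 26.9% to 32.1% had no unique alignment.

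Genes were filtered with filterByExpr (13196 left) and TMM-scaled. The test was the robust quasi-likelihood F test of edgeR 4.0.16 (R 4.3.3), without covariates and in 1 model of all 12 libraries. Benjamini-Hochberg adjustment ran over all tested genes, with a threshold of 0.05. The biological coefficient of variation was 17.4%. CPM use TMM-scaled library sizes. Positions, exonic lengths and GC content came from the basic annotation of GENCODE M21, to which 97.5% of genes matched (24116 by symbol, 444 by synonym). Promoters came from RefSeq on GRCm38.p6. No 2 libraries agreed within sampling noise. The fit was also run on simulated data that held no trend with length and no deviating library, so that run does not check the calls against either.

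The members and gene lists were chosen with earlier results of these data known. Values in every library are given for the 20 called members with the smallest adjusted p, and group means for the other 4 called members. Of each further list, up to 3 called genes a comparison with the smallest adjusted p are named; Mitf and the members that were not called are named for their roles. The cell type markers named with values were chosen after their values were seen. Exact permutation tests, two-sided, compared quality measures between groups. Alternatives were scaling by relative log expression or upper quartile, no filter and a stricter one (1 CPM in 4 libraries, mean 5 CPM), DESeq2 1.42.0, limma-voom (limma 3.58.1), a fit of each pair of groups alone, a block for replicate number, removal of each library's trend with length and GC content (lowess span 0.3), and leaving out libraries.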

Additional observations from a re-analysis of the deposited data

Results flagged for a closer look

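Over 129 groups of 4 libraries (43 members in 3 genotypes), 7 held 1 library far from the other 3 by Dixon's gap test, which flags about 1 in 20 groups by chance. Tfeb read 64.3 CPM in double-deficient 5, against 53.1 to 54.4 in the other libraries of that group. Mcoln1 read 112 CPM in Foxp3-deficient 1, against 69.2 to 76.5. Gabarapl2 read 8.77 CPM in Foxp3-deficient 1, against 12.5 to 13.0, and 11.2 in double-deficient 3, against 13.2 to 13.5. Lamtor5 read 26.8 CPM in double-deficient 2, against 34.7 to 35.9. Ulk1 read 48.9 CPM in WT 5, against 46.5 to 46.6, and Ctsb read 535 in WT 3, against 617 to 631. Foxp3-deficient 1 was flagged for 2 members, and every other library at most once.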

How the results depend on the processing

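None of the 34 called results of members changed direction over 782 checks, each of 1 call in 1 alternative fit. Of these checks, 651 kept the call and 131 lost it. The fits share libraries, so the checks are not independent. DESeq2 and relative log expression scaling lost none of the 34, upper quartile scaling and the stricter filter 1 each, limma-voom 3, no filter 6, removal of the length and GC trend 8, leaving out Foxp3-deficient 1 and 3 together 8 the fit of only the groups compared 9, the block described below 9 and the block with the trend removed 13. For members, Foxp3-deficient against WT cells gave 6 calls, and 10 with DESeq2 and 10 with the length and GC trend removed. Double-deficient against Foxp3-deficient cells gave 15, 7 with only the groups compared and 6 to 20 with 1 library left out. Double-deficient against WT cells gave 13, 21 with only the groups compared, 22 without Foxp3-deficient 1 and 3 together and 9 to 20 with 1 library left out. For further pathway genes, leaving out 1 library gave 23 to 52 where 38 were called and 28 to 60 where 44 were called. The causes of these changes were not tested. Deviations from the group means correlated between same-numbered Foxp3-deficient and WT libraries at 0.157, 0.102, 0.0289 and 0.203 for replicates 1, 3, 4 and 5. The highest correlation of the same Foxp3-deficient library with a WT library of another number was 0.188, 0.0161, 0.0841 and −0.0676. These values do not settle whether the numbers pair the samples. The labels do not say so, and the main fit left the numbers out. With the replicate number as a block, 6, 11 and 10 members and 16, 26 and 30 further genes were called in the 3 comparisons, and not every library correlated best with its own number. The block ended the calls of Atg9a, Mcoln1, Ctsl, Psap and Lamtor2 between the deficient groups and of Wipi2, Lamp1, Ctsd and Npc2 in double-deficient against WT cells, and added Map1lc3b and Lamp2, 1 in each. The block with the length and GC trend removed called 8 members and 25 further genes in double-deficient against Foxp3-deficient cells. With 4 libraries a group and a biological coefficient of variation of 17.4%, changes that miss the threshold are not shown to be absent.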
